A study of Mus musculus with 12 samples.

Results

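The 10 genes described here mark regulatory T cells (Tregs) or carry their suppressor functions. They are the transcription factors Foxp3, Ikzf2 and Ikzf4, the surface receptors Ctla4, Tnfrsf18 and Nrp1, the ectoenzymes Entpd1 and Nt5e, and Lrrc32 and Itgb8, whose proteins hold and release TGF-beta at the cell surface. They were taken by symbol, with no measured value in the rule, from the 45777 genes of the expression table. The list was chosen with earlier results of these data known. The study names Nt5e, Foxp3, Ikzf2, Nrp1 and Itgb8 as upregulated by the combined treatment described below, in this same experiment. Counts of rises among the 10 genes are therefore not independent evidence. All 10 were among the 23585 that were tested, those counted above 0 in 3 or more libraries.

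The question was how these genes behaved in T cells given a probiotic bacterium, an immunosuppressant or both. Spleen CD4+ T cells from mice were stimulated with an anti-CD3 antibody at 0.5 ug/ml for 3 days, which engages the T-cell receptor, and 12 RNA-seq libraries were made, with 3 in each of 4 groups. The groups were anti-CD3 alone, anti-CD3 with Lactobacillus acidophilus (LA), anti-CD3 with FK506 (tacrolimus, an inhibitor of the phosphatase calcineurin), and anti-CD3 with both (the combination), so that every group, controls included, carried the anti-CD3 stimulus. The labels call the mice wild-type Balb/c animals aged 7 weeks, whereas the study's methods name C57BL/6 mice for the RNA-seq, and neither says whether the libraries of a group came from separate mice or cultures, so that p-values measure only the spread between these libraries, which may be technical. The methods describe CD4 selection with magnetic beads for splenic CD4+ T cells, and the RNA-seq text gives no dose of LA or FK506. For the study's splenocyte cultures the LA was inactivated by heat, so that the bacteria were not live. The RNA-seq text does not say whether this held here.

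Tregs are CD4+ T cells that restrain other immune cells. Foxp3 fixes their lineage, and Helios (Ikzf2) and Eos (Ikzf4), relatives of Ikaros, work beside it. Tregs act in part by contact, through CTLA-4 on the CD80 and CD86 of antigen-presenting cells, in part by converting extracellular ATP to adenosine with CD39 (Entpd1) and CD73 (Nt5e), and in part by releasing active TGF-beta from the anchor GARP (Lrrc32) with the integrin subunit beta 8 (Itgb8). Several of these genes are also switched on for a time in any activated T cell, and calcineurin acts through the NFAT transcription factors, which FK506 keeps out of the nucleus.

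Because FK506 acts on NFAT, the letters of the core NFAT element, GGAAA read on either strand, were looked for in the 250 bases before annotated transcript starts. RefSeq promoter sequences (GRCm38.p6) were at hand for 7 of the 10 genes, Foxp3, Ctla4, Tnfrsf18, Entpd1, Nt5e, Itgb8 and Nrp1, with 2 starts each for Foxp3 and Entpd1, which makes 9 promoters. The start of the Nrp1 entry lies inside the Nrp1 locus, not at its outer end. Promoters are printed for the gene that names the lineage and for the gene that moved most in the combination (Nt5e), and for the pair whose level was high under anti-CD3 alone (Ctla4 and Tnfrsf18). Each is 5′ to 3′ in the direction of the gene, all are on the plus strand, and capitals mark the NFAT core letters.
Foxp3, chrX:7579426-7579675: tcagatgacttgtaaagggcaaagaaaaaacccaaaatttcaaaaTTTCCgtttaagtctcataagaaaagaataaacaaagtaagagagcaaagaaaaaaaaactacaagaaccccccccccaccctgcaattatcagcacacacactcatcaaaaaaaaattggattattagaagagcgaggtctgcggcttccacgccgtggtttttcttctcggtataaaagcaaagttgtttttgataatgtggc
Nt5e, chr9:88327359-88327608: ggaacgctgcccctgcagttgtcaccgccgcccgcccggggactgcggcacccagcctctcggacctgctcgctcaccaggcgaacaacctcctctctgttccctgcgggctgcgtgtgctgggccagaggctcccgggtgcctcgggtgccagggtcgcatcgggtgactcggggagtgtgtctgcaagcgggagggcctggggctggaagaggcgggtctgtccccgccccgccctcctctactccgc
Ctla4, chr1:60908775-60909024: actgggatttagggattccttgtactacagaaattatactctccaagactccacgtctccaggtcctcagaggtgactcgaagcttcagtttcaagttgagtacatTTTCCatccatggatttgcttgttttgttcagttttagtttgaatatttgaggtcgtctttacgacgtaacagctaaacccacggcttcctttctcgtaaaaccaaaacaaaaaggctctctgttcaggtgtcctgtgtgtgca
Tnfrsf18, chr4:156026072-156026321: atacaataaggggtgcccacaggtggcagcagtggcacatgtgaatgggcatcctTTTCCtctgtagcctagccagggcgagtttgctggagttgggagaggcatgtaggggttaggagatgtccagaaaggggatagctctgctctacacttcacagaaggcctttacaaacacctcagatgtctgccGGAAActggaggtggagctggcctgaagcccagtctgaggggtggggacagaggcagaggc
The NFAT letters stood in 6 of the 9 promoters, against 55.57% of all 32851 promoters of this length. The 2 Foxp3 promoters, that of Ctla4 and that of Nrp1 held 1 match each and that of Tnfrsf18 and the second of Entpd1 held 2 each, while those of Nt5e and Itgb8 and the first of Entpd1 held none. The Nt5e promoter was 72% G and C with 21 CpG, against medians of 52.4% and 6 over all promoters, and the Foxp3 promoter shown was 37.6% G and C with 6 CpG. Of the other letters searched on both strands, TTCNNNGAA (STAT) stood in the promoter of Tnfrsf18 and in the second Foxp3 promoter (7.02% of all promoters), TGGGAA (Ikaros, which can overlap the NFAT letters) in that of Entpd1 (21.59% of all), and TGANTCA (AP-1, 6.749% of all) and TGTTTAC (forkhead, 3.166% of all) in none of the 9. A match is a description of the letters, and a lack of one says only that these letters are not in this window.

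The libraries held 45416397 to 54245588 counts for replicates 2 and 3 and 63113961 to 64658165 for replicate 1, in each of the 4 groups. All 12 T-cell markers were detected, with a summed level of 2076 to 3283 FPKM per library (fragments scaled to transcript length and library size, so that levels can be compared between genes). Markers of other cells moved with FK506. The summed level of 18 B-cell markers was 164 to 293 FPKM with anti-CD3 alone, 131 to 276 with LA, 1428 to 2797 with FK506 and 1348 to 1481 with the combination. That of 14 myeloid and dendritic markers was 4.47 to 6.16, 5.51 to 10.5, 7.94 to 24.2 and 57.6 to 86.5 FPKM in the same order, with the neutrophil gene S100a8 at 0 in all 4 groups. Against anti-CD3 alone 17 of the 18 B-cell markers rose with FK506 and 12 with the combination, and 8 and 9 of 12 tested myeloid markers, Csf1r among them both times against a count of 0. Summed over 8 markers of platelets, endothelium and stroma, the level was 4.72 to 8.87 FPKM with anti-CD3 alone, 17.8 to 26.5 with FK506 and 27.8 to 32.5 with the combination. In the combination 4 of the 8 were called higher, Itga2b and Pecam1 against measured levels and Pf4 and Cdh5 against a count of 0 in every library of anti-CD3 alone. With FK506 Pecam1 alone was called. Over 7 CD8 and NK markers the sum was 4.04 to 7.90 FPKM with anti-CD3 alone, 8.28 to 16.6 with FK506 and 11.5 to 20.0 with the combination. In the combination 2 of 6 tested were called higher, Eomes and, against a count of 0, Klrb1c, and with FK506 these and Cd8a. A pair of libraries stood apart over the 10 genes. LA replicate 1 was the highest of its group for 10 of the 10 genes (42.66% of 12221 genes with a mean FPKM of at least 1), and FK506 replicate 3 the lowest of its group for 10 of the 10 (42.15% of these genes). In bulk RNA, more cells of a type and more RNA per cell cannot be told apart.

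**Figure D1:**
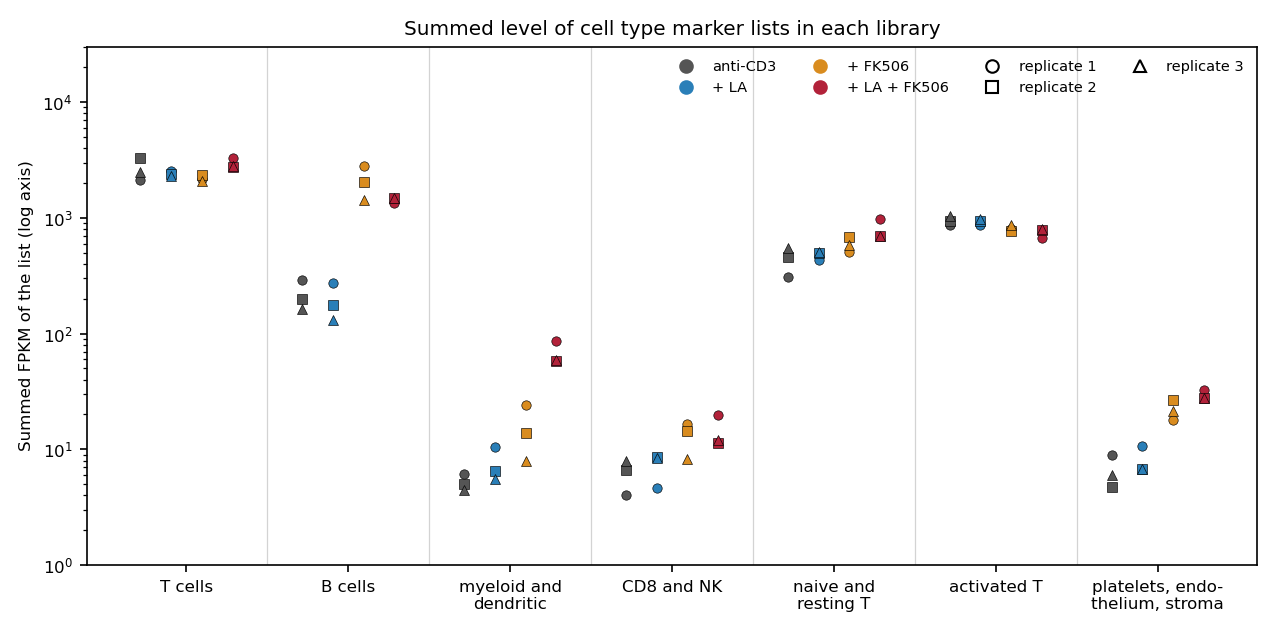
Summed FPKM (log axis) of 7 marker lists in each of the 12 libraries, coloured by group and shaped by replicate number. B-cell markers lie between 1348 and 2797 FPKM in the 6 libraries with FK506 and between 131 and 293 in the other 6, while T-cell markers lie between 2076 and 3283 in all 12.

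For 9 of the 10 genes the combination had the highest mean of the 4 groups. Against anti-CD3 alone, 7 of the 10 rose (Nt5e, Ikzf2, Foxp3, Itgb8, Lrrc32, Nrp1 and Entpd1) and none fell, where 13.8% of all tested genes rose and 10.8% fell. A gene was called when edgeR's quasi-likelihood test gave a Benjamini-Hochberg adjusted p under 0.05 and the change was at least 2-fold. With FK506 alone 6 of the 10 rose (all of these but Entpd1), where 6.44% of all genes did. With LA alone none of the 10 passed, where 0.157% of all genes rose; 6 of the 10 had an unadjusted p under 0.05, as did 14.8% of all genes, and DESeq2 called 2 of them (Foxp3 and Itgb8) where it called 1.15% of all genes higher. The median log2 fold change over the 10 was 2.99 in the combination, 1.84 with FK506 and 0.61 with LA, beside 0.02, 0.00 and 0.00 over all genes tested. Without LA replicate 1 the median with LA was 0.15. These 3 comparisons share the same control libraries.

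**Figure D2:**
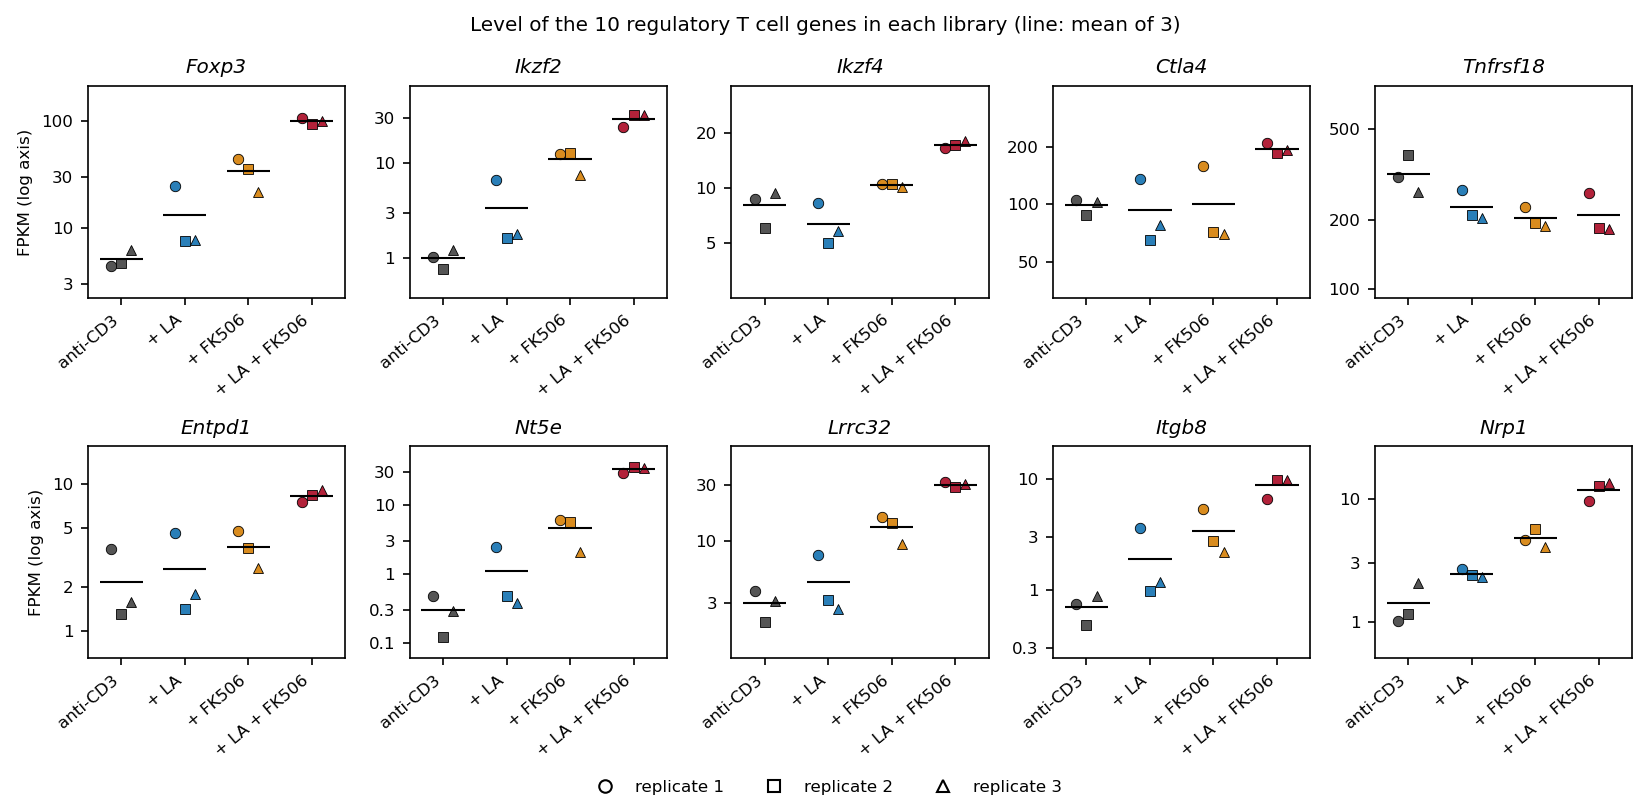
FPKM (log axis) of each gene in each library, with 3 libraries per group, shapes for the replicate number and a line at the group mean. In 9 of the 10 panels all 3 combination libraries lie above all 3 libraries of anti-CD3 alone, and in the panel of Tnfrsf18 they lie below.

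Foxp3, the transcription factor that defines the lineage (GRCm38.p6 chrX:7579676-7595243), was at 4.45, 4.73 and 6.20 FPKM in replicates 1 to 3 of anti-CD3 alone. It stood at 24.7, 7.53 and 7.76 with LA, at 44.8, 35.6 and 21.9 with FK506 and at 108, 95.7 and 101 with the combination. The 3 combination libraries lay within 1.12-fold of each other and above all others, the FK506 libraries lay above those of anti-CD3 alone, and LA replicate 1 overlapped the FK506 range. The combination held 17.3-fold more Foxp3 than anti-CD3 alone (log2 4.11 ± 0.44 SE, adjusted p = 3.22e-05) and FK506 6.14-fold more (log2 2.62 ± 0.42, adjusted p = 0.00152). With LA the difference was 2.48-fold (log2 1.31 ± 0.40) and did not pass (adjusted p = 0.166), and without LA replicate 1 it was 0.50 on the log2 scale. These values rest on counts of 1016 to 1422 per library with anti-CD3 alone and 18651 to 29125 with the combination.

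Of the 10 genes, Ikzf2, Ctla4, Nt5e and Lrrc32 overlap no other annotated gene. 2 annotated genes overlap Foxp3, and the sources used here do not say whether counting was by strand, so that the counts of overlapping genes may not be told apart. Flicr, a long noncoding RNA of the Foxp3 locus, held counts of 55 to 77 per library with anti-CD3 alone, 62 to 187 with LA, 297 to 511 with FK506 and 650 to 900 with the combination. Against anti-CD3 alone Flicr was higher in the combination by 3.41 ± 0.31 on the log2 scale (adjusted p = 1.25e-05) and with FK506 by 2.52 ± 0.30 (adjusted p = 0.00031). Ccdc22, on the other side, moved otherwise, with 9.28 to 13.2 FPKM under anti-CD3 alone and 8.40 to 10.4 in the combination (log2 -0.46 ± 0.16, adjusted p = 0.0365, under 2-fold). The nearest gene that does not overlap, Ppp1r3f, a regulatory subunit of protein phosphatase 1 that lies 5395 bases before Foxp3, went from 1.34 ± 0.057 to 6.20 ± 0.28 FPKM (mean ± SD) and was higher by 2.00 ± 0.15 (adjusted p = 7.36e-06). Cacna1f, 11860 bases after Foxp3, had a mean of 0 FPKM with anti-CD3 alone and 0.0303 with the combination, and was not called (adjusted p = 0.0741).

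Ikzf2, which encodes Helios (chr1:69531207-69687351), was near 1 FPKM with anti-CD3 alone, at 1.02, 0.764 and 1.20 in replicates 1 to 3. It stood at 6.55, 1.62 and 1.78 with LA, at 12.4, 12.6 and 7.53 with FK506 and at 24.0, 32.2 and 31.6 with the combination. No group overlapped the group below it in this order of means, though LA replicate 1 came close to FK506 replicate 3. The rise in the combination was 24.6-fold (log2 4.62 ± 0.51, adjusted p = 3.57e-05) and that with FK506 9.68-fold (log2 3.27 ± 0.48, adjusted p = 0.000957), and with LA the difference was 1.61 ± 0.45 on the log2 scale (adjusted p = 0.137), or 0.65 without LA replicate 1. Ikzf4, which encodes Eos (chr10:128630839-128669671), ran from 5.03 to 18.2 FPKM over the 12 libraries. It was at 8.75, 6.05 and 9.37 FPKM with anti-CD3 alone, 8.28, 5.03 and 5.82 with LA, 10.6, 10.6 and 10.1 with FK506 and 16.6, 17.2 and 18.2 with the combination. All combination libraries lay above all others, and the difference from anti-CD3 alone was 1.92-fold (log2 0.94 ± 0.19, adjusted p = 0.00179), under the 2-fold threshold. Without replicate 1 or replicate 3 of anti-CD3 alone it was 1.04 and 1.01 and was called. Calls also came without TMM factors (log2 1.14) and with limma on log2(FPKM + 1) and log2(FPKM + 0.1) (1.04 and 1.12).

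The checkpoint receptor Ctla4 (chr1:60909025-60915832), which takes CD80 and CD86 from antigen-presenting cells, was already at 106, 88.5 and 103 FPKM under anti-CD3 alone. It was at 136, 64.8 and 77.9 with LA, at 160, 72.0 and 69.9 with FK506 and at 209, 186 and 192 with the combination. Replicate 1 was the highest library in each of the 4 groups, and the 3 combination libraries lay above all 9 others. The difference between the combination and anti-CD3 alone, 1.71-fold (log2 0.77 ± 0.31), did not pass (adjusted p = 0.0638), and those of FK506 (log2 -0.11 ± 0.31, adjusted p = 0.868) and LA (log2 -0.17 ± 0.31, adjusted p = 0.865) were within their errors.

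Tnfrsf18, which encodes the costimulatory receptor GITR (chr4:156026322-156028894), was the most abundant of the 10 and the only one whose mean was lower in the combination than under anti-CD3 alone. It was at 308, 384 and 266 FPKM with anti-CD3 alone, 271, 210 and 205 with LA, 229, 196 and 188 with FK506 and 263, 185 and 184 with the combination. The FK506 and combination libraries all lay below those of anti-CD3 alone, by 1.70-fold with FK506 (log2 -0.77 ± 0.19, adjusted p = 0.0171) and 1.75-fold in the combination (log2 -0.81 ± 0.19, adjusted p = 0.00548), both under the 2-fold threshold. Without replicate 1 of the combination the latter was -1.03 (adjusted p = 0.00142) and was called. Its neighbour Tnfrsf4 (OX40), which ends 9709 bases before it, fell in the combination by 1.33 ± 0.21 on the log2 scale (adjusted p = 0.000328), from 414 ± 112 to 191 ± 26.9 FPKM. Ttll10, which lies 5941 bases after Tnfrsf18, was at 0 FPKM in all groups and was not tested.

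Both ectoenzymes among the 10 genes, Nt5e and Entpd1, rose in the combination. Nt5e, which encodes CD73 (chr9:88327609-88372089), had the largest change of the 10 and the lowest starting level, at 0.482, 0.123 and 0.296 FPKM with anti-CD3 alone. It was at 2.48, 0.492 and 0.381 with LA, at 6.19, 5.67 and 2.12 with FK506 and at 28.7, 35.5 and 34.8 with the combination, and each combination library was at least 59.7 times the highest library of anti-CD3 alone. The rise was 93.1-fold in the combination (log2 6.54 ± 0.78, adjusted p = 5.91e-05) and 13.9-fold with FK506 (log2 3.80 ± 0.71, adjusted p = 0.00355). With LA the log2 difference was 1.80 ± 0.68 (adjusted p = 0.248), or 0.44 without LA replicate 1. The low groups rest on low counts, 26 to 127 per library with anti-CD3 alone, against 6594 to 7410 with the combination. Snx14, a sorting nexin that lies 4666 bases after Nt5e, also rose, from 5.73 ± 1.02 to 15.5 ± 2.17 FPKM (log2 1.23 ± 0.18, adjusted p = 0.000252). Among nearest coding genes of the 10, Ppp1r3f was also called higher and Tnfrsf4 lower. Spag16 and Cc2d2b were called higher against 0 FPKM with anti-CD3 alone. Cacna1f, Rps26, Suox, Cd28, Icos, Tctn3, Emsy, Macc1, Pard3 and Itgb1 were tested and not called. Of all tested genes 13.8% rose and 10.8% fell.

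Entpd1, which encodes CD39, the enzyme that acts before CD73 (chr19:40612366-40741602), had an uneven control group. It was at 3.60, 1.31 and 1.58 FPKM with anti-CD3 alone, 4.67, 1.42 and 1.78 with LA, 4.78, 3.68 and 2.69 with FK506 and 7.59, 8.39 and 9.06 with the combination. The first 3 groups overlapped, and the combination libraries lay above all others. Against anti-CD3 alone it was 3.32-fold higher in the combination (log2 1.73 ± 0.45, adjusted p = 0.00894), and with FK506 the difference was 1.57-fold (log2 0.66 ± 0.45, adjusted p = 0.335). Without replicate 1 of anti-CD3 alone these were 2.34 and 1.26 on the log2 scale, and without replicate 1 in all groups Entpd1 was called with FK506 too (log2 1.06, adjusted p = 0.00809). Gm8783, one of 3 annotated genes that overlap Entpd1, was more abundant than Entpd1 in the 9 libraries outside the combination and moved otherwise, at 5.17 to 5.84 FPKM with anti-CD3 alone and 5.74 to 6.84 with the combination (log2 -0.01 ± 0.11, adjusted p = 0.951).

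The TGF-beta pair rose with both treatments that held FK506. Lrrc32, which encodes GARP, the anchor of latent TGF-beta (chr7:98489305-98501831), was at 3.80, 2.07 and 3.13 FPKM with anti-CD3 alone and at 7.61, 3.17 and 2.68 with LA. It stood at 15.9, 14.3 and 9.54 with FK506 and 31.5, 28.4 and 30.0 with the combination. The anti-CD3 and LA groups overlapped and the other groups did not. Against anti-CD3 alone Lrrc32 was 8.64-fold higher in the combination (log2 3.11 ± 0.37, adjusted p = 5.97e-05) and 4.04-fold higher with FK506 (log2 2.01 ± 0.36, adjusted p = 0.0028). Itgb8, the integrin subunit that frees TGF-beta from its latent form (chr12:119162803-119238276), was under 1 FPKM with anti-CD3 alone, at 0.747, 0.488 and 0.883. It was at 3.59, 0.978 and 1.18 with LA, 5.35, 2.74 and 2.17 with FK506 and 6.61, 9.79 and 9.70 with the combination, so that LA replicate 1 lay among the FK506 libraries. The rise was 10.6-fold in the combination (log2 3.41 ± 0.50, adjusted p = 0.000217) and 4.46-fold with FK506 (log2 2.16 ± 0.48, adjusted p = 0.00921).

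Nrp1, which encodes neuropilin 1, a coreceptor for semaphorins and VEGF that is used as a mark of thymus-derived Tregs (chr8:128358591-128505476), was low with anti-CD3 alone and varied there by 2.02-fold. It was at 1.03, 1.17 and 2.07 FPKM with anti-CD3 alone, 2.69, 2.41 and 2.32 with LA, 4.64, 5.73 and 4.07 with FK506 and 9.65, 12.6 and 13.3 with the combination. The 4 groups did not overlap. Nrp1 was 7.29-fold higher in the combination (log2 2.87 ± 0.23, adjusted p = 8.18e-06) and 3.17-fold higher with FK506 (log2 1.66 ± 0.22, adjusted p = 0.000531), and with LA the difference was 1.67-fold (log2 0.74 ± 0.22, adjusted p = 0.146). LA gave a call for Nrp1 once replicate 3 of anti-CD3 alone was left out (log2 1.07, adjusted p = 0.0219).

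**Figure D3:**
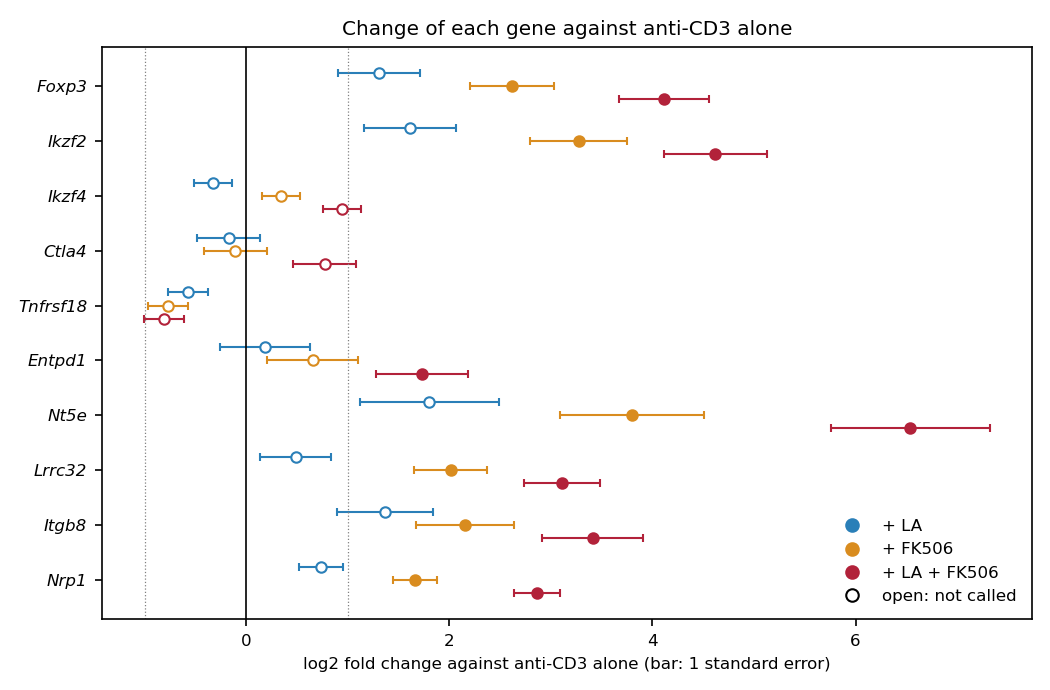
Log2 fold change against anti-CD3 alone with 1 standard error for LA (blue), FK506 (orange) and the combination (red), from a fit of all 12 libraries. Filled points were called. Nt5e has the largest value (6.54 in the combination), and for Ikzf4, Ctla4 and Tnfrsf18 all 3 points are open.

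As background, Entpd1, Nt5e, Nrp1, Itgb8 and Lrrc32 are also made by B cells, myeloid cells, platelets or stroma, whereas Foxp3, Ikzf2 and Ctla4 are mostly T-cell genes. Within the FK506 group the B-cell sum was 2797, 2025 and 1428 FPKM in replicates 1 to 3 and the myeloid sum 24.2, 13.9 and 7.94, the same order as Foxp3, Nt5e, Lrrc32, Itgb8 and Entpd1, and also as Ctla4 and Tnfrsf18. Nrp1, Ikzf2 and Ikzf4 had another order, with replicate 2 highest. From FK506 to the combination the B-cell sum did not go up, and 10 of 18 B-cell markers fell and none rose, while 7 of 12 tested myeloid markers rose and 1 fell. The part of these cells in the result was not tested.

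Adding LA to FK506 raised 4 of the 10 genes over FK506 alone, Nt5e, Foxp3, Nrp1 and Lrrc32, where 3.84% of all genes rose. By edgeR 9 of the 10, all but Tnfrsf18, had an unadjusted p under 0.05 here, beside 32.8% of all genes. The combination and FK506 libraries of Tnfrsf18 overlapped. The differences were 6.68-fold for Nt5e (log2 2.74 ± 0.64, adjusted p = 0.0118), 2.82-fold for Foxp3 (log2 1.49 ± 0.40, adjusted p = 0.0223), 2.30-fold for Nrp1 (log2 1.20 ± 0.21, adjusted p = 0.00297) and 2.14-fold for Lrrc32 (log2 1.10 ± 0.35, adjusted p = 0.0447). Ikzf2 was higher by 1.35 ± 0.44 (adjusted p = 0.0525), Itgb8 by 1.25 ± 0.46 (adjusted p = 0.0754), Entpd1 by 1.07 ± 0.45 (adjusted p = 0.116) and Ctla4 by 0.88 ± 0.31 (adjusted p = 0.0704), and none of these passed. Ikzf4 was 1.52-fold higher (adjusted p = 0.0437), under 2-fold. This count turned on single libraries, being 1 without FK506 replicate 3, 2 without FK506 replicate 2, combination replicate 1 or combination replicate 3, and 7 without LA replicate 1. It was also 2 when libraries were scaled to T-cell transcripts, which moved the median of all genes by -0.351 and under which 2.07% of all genes rose and 9.5% fell. All genes that rose were 905 in the main fit, 405 without FK506 replicate 3 and 995 without LA replicate 1. They were 766 without FK506 replicate 2, and 669 and 629 without combination replicates 1 and 3.

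Against LA alone, 8 of the 10 rose in the combination, all but Ctla4 and Tnfrsf18, where 9.93% of all genes rose. Nt5e led at 26.7-fold (log2 4.74 ± 0.70, adjusted p = 0.000414), followed by Ikzf2 at 8.05-fold (log2 3.01 ± 0.47, adjusted p = 0.000563) and Foxp3 at 6.98-fold (log2 2.80 ± 0.42, adjusted p = 0.000423). Without LA replicate 1 these differences were 6.10 for Nt5e, 3.97 for Ikzf2 and 3.61 for Foxp3 on the log2 scale, with 3.24 for Lrrc32, 2.88 for Itgb8 and 2.26 for Entpd1. Ikzf4, which missed the threshold against anti-CD3 alone, was 2.41-fold higher than with LA (log2 1.27 ± 0.19, adjusted p = 0.000441). Entpd1 was higher by 1.54 ± 0.45 (adjusted p = 0.0202) and lost its call without LA replicate 2 (adjusted p = 0.0753), LA replicate 3 (adjusted p = 0.0794) or combination replicate 3 (adjusted p = 0.0505). Ctla4 was 1.93-fold higher (log2 0.95 ± 0.31, adjusted p = 0.0353), and with the replicate number as a block, which pairs these libraries, it was called at 1.02 (adjusted p = 0.00314), as it was at 1.33 without LA replicate 1 (adjusted p = 0.00701).

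FK506 against LA separated fewer of the genes. Ikzf2 (log2 1.66 ± 0.45, adjusted p = 0.0434) and Lrrc32 (log2 1.53 ± 0.35, adjusted p = 0.0207) were higher with FK506, 2 of the 10, where 3.51% of all genes rose. Nrp1 was 1.90-fold higher (adjusted p = 0.0209), under 2-fold. With the replicate block, which pairs these libraries, 4 were called, as Foxp3 (log2 1.42, adjusted p = 0.033) and Nt5e (log2 2.24, adjusted p = 0.0295) were added. The count was 5 without LA replicate 1 or FK506 replicate 3, the libraries that stood apart, 0 without FK506 replicate 1, FK506 replicate 2, LA replicate 2 or LA replicate 3, and 1 without any of the 3 combination libraries or replicate 1 or 3 of anti-CD3 alone. All genes that rose were 1050 and 991 in the fits that gave 5. They were 489 to 580 in those that gave 0 and 736 to 898 in those that gave 1.

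Whether LA did more in the presence of FK506 than in its absence was tested as the log2 effect of LA with FK506 present minus its log2 effect without it, called the departure here. None of the 10 departed at an adjusted p under 0.05 by edgeR, where 4.35% of all genes did in either direction. 2 of the 10 had an unadjusted p under 0.05, Ikzf4 (0.93 ± 0.27, adjusted p = 0.074) and Ctla4 (1.05 ± 0.44, adjusted p = 0.209), as did 19.6% of all genes, and DESeq2 called 1, Ikzf4, where it called 10.1% of all genes. With the replicate block, whose numbers pair LA with each other group but were not shown to pair the other groups, both were called, Ikzf4 at 0.93 (adjusted p = 0.0409) and Ctla4 at 1.22 (adjusted p = 0.0341), where 6.69% of all genes were. For Ikzf4 LA gave -0.33 ± 0.19 without FK506 and 0.60 ± 0.19 with it, and for Ctla4 -0.17 ± 0.31 and 0.88 ± 0.31. The departure of Foxp3 was 0.19 ± 0.56 (adjusted p = 0.931), from 1.31 ± 0.40 without FK506 and 1.49 ± 0.40 with it, and that of Nt5e 0.94 ± 0.91 (adjusted p = 0.635). The latter ranged from 0.38 without replicate 1 of anti-CD3 alone to 2.30 without LA replicate 1, and limma on log2(FPKM + 1) called it (adjusted p = 0.0487). Without the 4 libraries of replicate 1 the departure of Foxp3 was 1.23 (adjusted p = 0.0712) and that of Ctla4 1.78 (adjusted p = 0.0124).

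Relative to Foxp3 in the same library, the genes parted. Ikzf2 kept close to it, at 0.162 to 0.230 of the Foxp3 FPKM with anti-CD3 alone and 0.223 to 0.336 with the combination. Over the 12 libraries it was also the gene of the 10 whose centred log2(FPKM + 1) differed least from that of Foxp3, by a root mean square of 0.186. Nt5e gained on Foxp3, from 0.026 to 0.108 with anti-CD3 alone to 0.267 to 0.371 with the combination. Ctla4 went the other way, from 16.7 to 23.7 times Foxp3 with anti-CD3 alone, through 5.52 to 10.0 with LA and 2.02 to 3.57 with FK506, to 1.91 to 1.94 with the combination. Tnfrsf18 went from 43.0 to 81.2 times Foxp3 to 1.83 to 2.45, and Ikzf4 from 1.28 to 1.97 to 0.154 to 0.181. These ratios of levels are a description, with no test.

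**Figure D4:**
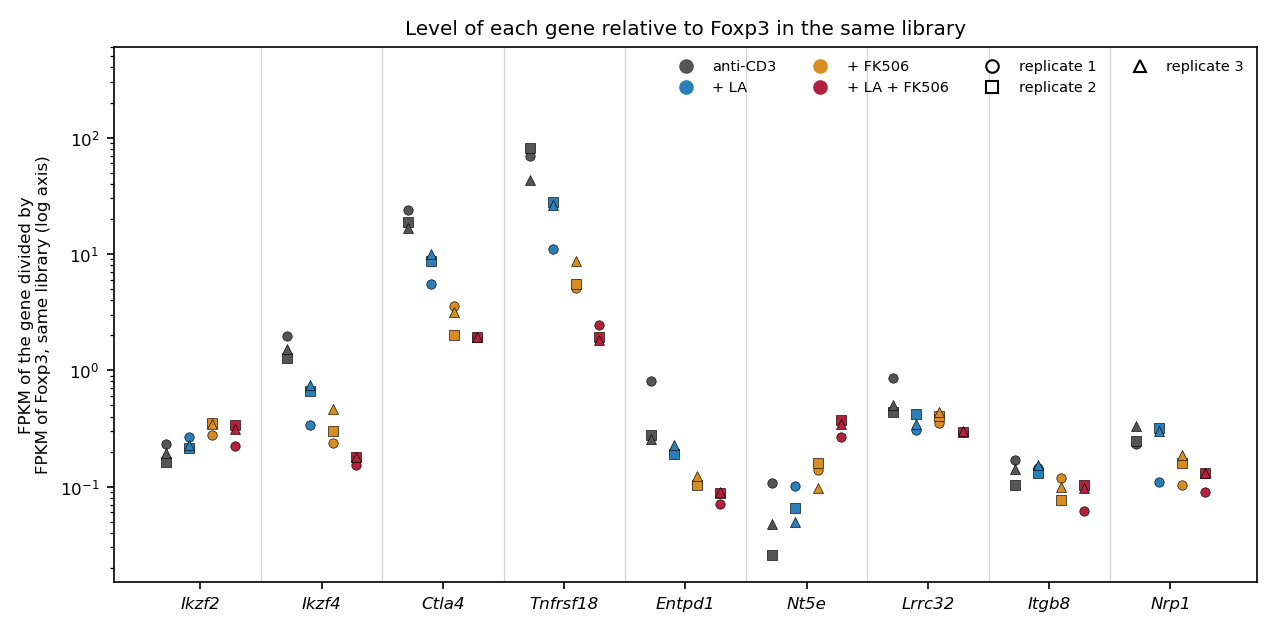
FPKM of each of the other 9 genes divided by the FPKM of Foxp3 in the same library (log axis), coloured by group and shaped by replicate number. The ratio of Ctla4 goes from 16.7 to 23.7 under anti-CD3 alone to 1.91 to 1.94 in the combination, while that of Ikzf2 stays between 0.162 and 0.355 in all 12 libraries.

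Outside the 10, the genes whose centred log2(FPKM + 1) lay nearest to that of Foxp3 over the 12 libraries were Tbc1d4 (root mean square difference 0.251), a Rab GTPase-activating protein, then Ifi209 (0.363), Gm6637 (0.394), S100a4 (0.396) and Csf2rb (0.407). Tbc1d4 was at 0.883 ± 0.46 FPKM (mean ± SD) with anti-CD3 alone, 4.56 ± 2.60 with LA, 11.4 ± 4.34 with FK506 and 38.4 ± 3.03 with the combination. Nearest to Nt5e were Csf2rb (0.333), the shared beta chain of the GM-CSF and IL-3 receptors, Gm6637 (0.392), Mmp12 (0.451), a macrophage metalloelastase, Rln3 (0.453) and S100a4 (0.475). Nearest to Ctla4 were Ttc39c (0.172), Sdcbp2 (0.192), Acot11 (0.208), Gm2a (0.222) and Neb (0.231). Likeness in pattern was measured across these 12 libraries only, which share their groups.

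Around the 10 genes, 103 further genes in 7 lists were looked at, of which 101 were tested. In the combination against anti-CD3 alone 24 rose and 23 fell (median log2 0.06), where 13.8% of all tested genes rose and 10.8% fell. With FK506 11 rose and 12 fell, where 6.44% rose and 4.12% fell, and with LA none passed in either direction. Among relatives of Ikaros and Foxp genes, 1 of 5 tested rose, Foxp1, a factor of resting T cells, from 11.9 ± 4.56 to 31.0 ± 2.90 FPKM (log2 1.20 ± 0.20, adjusted p = 0.000462). Among 22 regulators and partners of Foxp3, 2 rose (Nfatc1 and Nr4a1) and 4 fell. Gata3, the Th2 factor, fell by 1.63 ± 0.13, Uhrf1, which maintains DNA methylation, by 1.57 ± 0.10, and Satb1, a chromatin organizer that Tregs hold low, by 1.36 ± 0.16 on the log2 scale. The fourth was Stat5a. Here and in the lists that follow, genes named without a value, and Il2ra, were named after their values were seen.

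Of 12 ligands and partners of the surface proteins, 3 were called higher, of which 1 was called against groups at 0, and 3 lower. The CTLA-4 ligands Cd86 (from 2.16 ± 1.00 to 13.9 ± 3.34 FPKM, log2 2.43 ± 0.44) and Cd80 (from 5.92 ± 1.16 to 19.6 ± 0.14 FPKM, log2 1.69 ± 0.15) rose beside the myeloid markers given above, whose part was not tested. The one called against groups at 0 was the GITR ligand Tnfsf18, which was at 0 in every library of anti-CD3 alone and of LA, passed the filter on low counts only through the groups with FK506 and stood at 0.0135, 0.247 and 0.121 FPKM in the combination. Vegfa, a ligand of Nrp1, fell by 4.89 ± 0.41 on the log2 scale, from 18.6 ± 8.43 to 0.719 ± 0.13 FPKM, and Sema4a and Tgfb3 fell as well. In the adenosine pathway 2 of 13 rose and 5 fell. Dpp4 (CD26) rose by 2.27 ± 0.21, while the adenosine receptor Adora2b fell by 3.27 ± 0.33 and the nucleoside transporter Slc29a2 by 1.48 ± 0.23. Entpd5 was the other gene that rose, and Ada, Adora3 and Enpp1 were the others that fell. Of 11 genes of TGF-beta receptors and Smads 4 rose and 2 fell. Tgfbr2, the receptor subunit that binds TGF-beta, rose by 1.61 ± 0.13, from 12.3 ± 2.23 to 43.1 ± 2.49 FPKM, and the inhibitory Smad7 by 1.55 ± 0.20, while Ltbp3, which binds latent TGF-beta in the matrix, fell by 2.37 ± 0.37. Tgfbr1 and Skil also rose, and Tgfbr3 also fell.

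Other suppressor molecules went both ways, with 4 of 15 higher and 5 lower. The soluble effector Fgl2 rose by 3.54 ± 0.81 on the log2 scale, while granzyme B (Gzmb), which fell by 2.53 ± 0.57 from 447 ± 46.8 to 88.5 ± 65.1 FPKM, and perforin (Prf1), which fell by 2.42 ± 0.35, are cytotoxic genes that effector T cells also make. Areg, Havcr2 and Tigit also rose, and Ido1, Il12a and Lgals1 also fell. Of 23 other genes of the Treg signature 8 rose and 4 fell. Klrg1, a receptor of differentiated T cells, rose by 5.24 ± 0.98, the zinc finger factor Plagl1 by 4.05 ± 0.38 and the integrin Itgae (CD103) by 3.70 ± 0.75. The 4 that fell were Il2ra, Tnfrsf4, Ccr4 and Penk, of which Il2ra (CD25), the high-affinity IL-2 receptor chain that both Tregs and activated T cells carry, fell by 1.17 ± 0.16, from 477 ± 67.3 to 245 ± 25.9 FPKM. Resting and activated T-cell markers moved beside these genes. The summed level of 10 naive or resting markers was 306 to 551 FPKM with anti-CD3 alone and 691 to 978 with the combination, and that of 10 activation markers 869 to 1031 and 669 to 809. Neither list moved as one, since 5 resting markers rose (Foxp1, Il7r, Klf2, S1pr1 and Tcf7) and Satb1 fell, and among activation markers Cd40lg, Il2, Irf4 and Myc fell and Cd44 and Cd69 rose. The part of these states in the changes of the 10 genes was not tested.

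**Figure D5:**
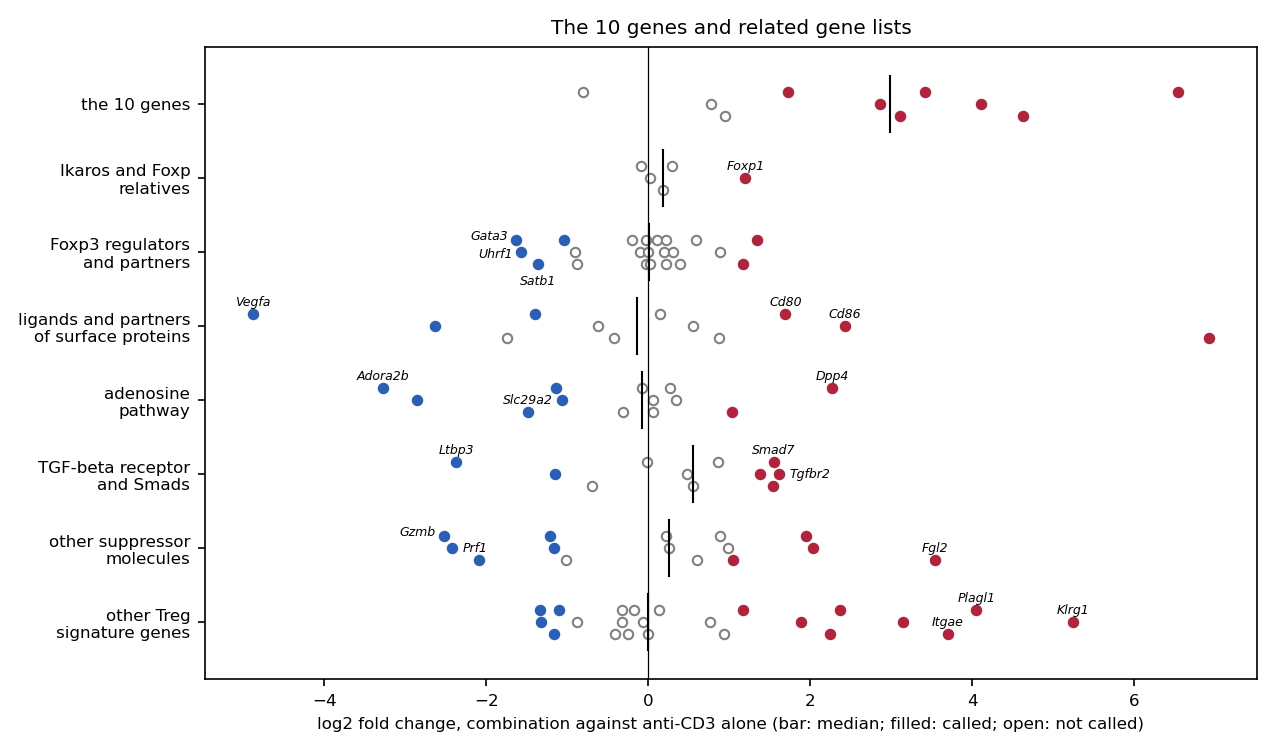
Log2 fold change of each gene in the combination against anti-CD3 alone, for the 10 genes and for 7 lists of related genes, with a bar at each median. Red points rose, blue points fell and open points were not called. The median of the 10 genes is 2.99, and that of the 103 listed genes over the 101 tested is 0.06.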

How the data were processed

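RNA-seq of mouse spleen CD4+ T cells gave 12 libraries in 4 groups of 3, grouped by their labels. The authors deposited counts as whole numbers per gene, not normalized, and FPKM values scaled to transcript length and library size, for 45777 genes. The submitters' processing notes name bcl2fastq 2.20.0, Trimmomatic, HISAT2 2.1.0, StringTie 2.1.3b and the build GRCm38, with no role or order. Since StringTie derives counts from coverage, the deposited counts may be estimates rounded to whole numbers, and a count here need not be a number of reads. The quantile normalization that the study's methods name was not visible in the deposited FPKM values, whose totals differ. The 12 TPM columns were not used.

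The members and gene lists were chosen with earlier results of these data known. edgeR 4.0.16 (R 4.3.3; quasi-likelihood test, TMM factors, 1 mean per group) was fitted to all 12 libraries over 23585 genes above 0 in at least 3 libraries, with p-values adjusted by Benjamini and Hochberg over these genes. A gene was called at an adjusted p under 0.05 and at least 2-fold, and a departure from the sum at an adjusted p under 0.05. The standard error is the log2 fold change over the square root of F. An exact two-sided permutation test of 3 against 3 libraries cannot go below p = 0.1. The script was tested on simulated data. At an adjusted p under 0.05 it recovered 95 of 100 genes changed 4-fold and 57 of 100 changed 2-fold. A change near 2-fold that was not called may therefore have been missed. Alternatives were DESeq2 1.42.0, limma 3.58.1 on log2(FPKM + 1) or log2(FPKM + 0.1), no TMM factors, scaling to T-cell transcripts, 2 other filters on low counts, no fold threshold, only the 6 libraries compared, a replicate block, each library left out and replicate 1 left out in all groups.

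Deviations from the group means of same-numbered libraries correlated above 0.1 in every pair for LA with anti-CD3 (lowest 0.291), the combination with LA (0.186) and FK506 with LA (0.125), so that the block pairs these groups by the numbers in the labels. All 10 genes are named, with up to 3 genes per list that had the largest called change in the combination and a mean FPKM of at least 1, and the 5 genes nearest in pattern to Foxp3, Nt5e and Ctla4. Libraries of a group differed by more than counting noise. Loci and promoters are from RefSeq GRCm38.p6. Figures were drawn with matplotlib 3.10.9.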

Additional observations from a re-analysis of the deposited data

How the results depend on the processing

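The count of genes called in the combination against anti-CD3 alone (7) and with FK506 against anti-CD3 alone (6) stayed within 7 to 9 and 6 to 7 under every alternative, and that in the combination against LA (8) within 7 to 9. In the same order, 14%, 7.33% and 10.5% of all genes rose with DESeq2, and 11.7%, 7.95% and 7.81% with T-cell scaling. The other counts moved. The 4 genes of the combination against FK506 were 7 with DESeq2, with limma on log2(FPKM + 1), with the replicate block and with only the 6 libraries compared, 2 with libraries scaled to T-cell transcripts, 8 without replicate 1 in all groups, and 1 to 7 with single libraries left out. Of all genes, 4.72% rose with DESeq2, 4.35% with the replicate block and 2.07% with T-cell scaling. All genes that rose were 348 with this limma fit, 1193 with only the 6 libraries and 1013 without replicate 1. The 2 genes of FK506 against LA were 4 with T-cell scaling and with the replicate block, 0 with only the 6 libraries compared, 6 without replicate 1 in all groups and 0 to 5 with single libraries left out. Here 4.02% of all genes rose with T-cell scaling and 4.01% with the replicate block. All genes that rose were 818 with only the 6 libraries and 963 without replicate 1. The 0 genes of LA against anti-CD3 were 2 with DESeq2, where 1.15% of all genes rose, and 0 to 1 with single libraries left out. The 0 departures from the sum were 1 with DESeq2, 2 with limma on log2(FPKM + 1) and 1 on log2(FPKM + 0.1), 2 with the replicate block, 1 without replicate 1 in all groups and 0 to 1 with single libraries left out. In either direction DESeq2 called 10.1% and the replicate block 6.69% of all genes. Limma called 866 genes higher and 809 lower at the pseudocount 1, and 632 and 781 at 0.1. Without replicate 1 in all groups 222 were higher and 252 lower. The cause of these moves was not tested. The replicate numbers were not shown to pair the combination or FK506 with anti-CD3 (lowest correlations -0.175 and -0.106) or with each other (0.027), and the block left 7 and 6 calls there and 7 for the combination against FK506.

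Signs that turned belonged to differences that were not called. The log2 difference of Ctla4 with FK506 against anti-CD3 (-0.11) was 0.0038 without TMM factors, 0.13 with T-cell scaling and -0.59 to 0.13 with single libraries left out. With libraries left out, that of Ctla4 ranged from -0.55 to 0.029 for LA against anti-CD3 and from -0.42 to 0.45 for FK506 against LA (-0.037 without replicate 1 in all groups), and for LA against anti-CD3 that of Entpd1 from -0.53 to 0.80 and that of Lrrc32 from -0.13 to 0.75. Tnfrsf18 in the combination against FK506 (-0.04) was 0.051 without TMM factors, 0.029 with limma on log2(FPKM + 1) and 0.029 on log2(FPKM + 0.1), and -0.26 to 0.064 with libraries left out. The departure of Foxp3 (0.19) was -0.22 with T-cell scaling and -0.099 to 0.99 with libraries left out. That of Ikzf2 (-0.27) was 0.44 and 0.084 with limma at the pseudocounts 1 and 0.1, -0.59 to 0.70 with libraries left out and 0.89 without replicate 1 in all groups. That of Itgb8 (-0.11) was 0.51 and 0.28 with limma, 0.20 with the replicate block, -0.42 to 0.72 with libraries left out and 1.27 without replicate 1 in all groups. Over single genes 1446 of the values kept direction and call, 77 gained a call, 32 lost one and 35 turned. T-cell scaling moved the median of all genes by 0.226 with FK506 against anti-CD3 and by -0.457 for the departure, and leaving out TMM factors by 0.205 for the combination against anti-CD3. Leaving out a library of a group of 3 also leaves fewer samples to estimate the spread. Nt5e, with a count of 26 in its lowest library, is the gene that depth limits most.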
